A study of Kryptolebias marmoratus with 5 samples.

Results

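The *shorttail* (*stl*) mutant of the mangrove killifish *Kryptolebias marmoratus* was compared with phenotypically normal embryos of its own line, the *stl*-sibling group, by RNA-seq of 1 pooled library each. Reads were summed over 22090 genes, and the 15363 genes whose mean reached 2 CPM (reads scaled to a common library size) over the 5 libraries of the series were described. Of these, 153 (0.996%) were in *stl* at least 2-fold below *stl*-sibling and 33 (0.215%) were at least 2-fold higher. The lower genes were led by notochord sheath genes, most of which also lay far below every normal library, followed by a larger and milder group of muscle genes. The higher genes were led by lens crystallins and heat shock genes.

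The *stl* line (R109) came from ENU mutagenesis, and the *stl* library is labelled as the shorttail (-/-) mutant, whose defect the study traced to *noto*. The siblings were sorted by their normal appearance. The paper found the *noto* mutation in a part of their reads, so the sibling pool held both alleles. The other libraries were WT, which is the *Hon9* strain, and mutant and normal embryos of another line, *btl* (balltail, -/-) and *btl*-sibling. Each pool held 20 to 25 whole embryos labelled stage 17, with stages 16 and 18 possible. The paper itself gives stages 16 to 18 in its methods but a later stage in its results. All 5 groups carry no other treatment in the labels. The stage make-up of each pool is not known, so stage and genotype cannot be told apart.

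The notochord is a rod of vacuolated cells inside a sheath of collagens and other matrix proteins, and it stiffens the body axis before a backbone exists. Noto is a homeobox transcription factor of the notochord progenitors, and in zebrafish embryos without its function axial cells do not become notochord. The notochord also signals to its neighbours, including the floor plate of the neural tube and the somites, from which the trunk and tail muscles form.

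The estimated counts summed to 11487661 in *stl*, 11849426 in *stl*-sibling and between 9147625 and 12220249 in the other libraries. With 1 library per group no difference had a replicate check, so no p-values are given. The level of difference between pools came from the 3 normal libraries, in which 2-fold differences were found for 266 genes (1.73%) when *stl*-sibling was set against WT, for 209 (1.36%) when *btl*-sibling was, and for 324 (2.11%) when the sibling pools of both lines were compared. The 186 genes (1.21%) that differed between *stl* and its sibling were therefore fewer than in any of these comparisons, which cross lines, whereas *stl* and *stl*-sibling share one. Against the pools of other lines, *stl* was 2-fold lower in 229 genes (1.49%) and higher in 186 (1.21%) with WT as the reference, and lower in 276 (1.8%) and higher in 230 (1.5%) with *btl*-sibling. Of 26 tissue markers for notochord, muscle, neural tissue, epidermis, blood, heart, lens, hatching gland and tail bud, 21 were matched by symbol, with no filter on low values. All 21 had reads in *stl*, the fewest being 7 for the lens gene *cryaa* and 9 for the heart gene *nppa*. The 5 unmatched markers, among them the hatching gland marker, were not checked. In each gene below, the log2 fold change is that of *stl* against *stl*-sibling after adding 0.5 CPM to both, unless another reference is named. Intervals are exact 95% intervals of the log2 ratio of reads, which cover counting error only and compare libraries, not conditions. In whole embryos, fewer cells of a type and less RNA per cell cannot be told apart.

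*noto* itself (linkage group 10 of ASM164957v2, 1128214 to 1129624) was measured at 8.01 CPM in WT, 7.56 in *stl*-sibling, 7.14 in *btl*-sibling and 3.71 in *stl*. The normal libraries lay close together and *stl* was the lowest. The log2 fold change was -0.94 (interval -1.58 to -0.49, 44 reads in *stl* and 92 in the sibling), just short of 2-fold, and *noto* had rank 175 from the lowest gene. Reads of either allele were counted together.

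A difference of 2-fold is an arbitrary border on a continuous scale. The last genes inside it on the lower side were LOC108249221 at -1.001 and LOC108248153 at -1.003, and the first outside were *casq1a* at -0.998 and LOC108234865 at -0.992. On the higher side *rassf4a* at 1.01 and LOC108230688 at 1.03 were inside and LOC108242631 at 0.962 and LOC108249375 at 0.933 were outside. For all 186 genes the interval of the read ratio left out no change.

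A stricter description used all 3 normal libraries. *stl* lay below 0.5 times the lowest normal CPM for 81 genes (0.527%) and above 2 times the highest for 25 (0.163%). The same rule applied to each normal library against the other 2 gave 53 and 21 genes for WT (0.345% and 0.137%), 94 and 70 for *stl*-sibling (0.612% and 0.456%), and 69 and 46 for *btl*-sibling (0.449% and 0.299%). Of the 153 lower genes 65 met it, and of the 33 higher genes 25 did. The lower genes were chosen for a low ratio to *stl*-sibling, which favours genes that were high in that library, and *stl*-sibling was the highest normal library for 123 of the 153, against 31.6% of all genes.

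The size of the difference separated functions. Of the 8 genes at a log2 fold change of -4 or lower, 4 encoded matrix proteins, none was a muscle gene and 7 lay 2-fold below all normal libraries. Between -4 and -3 there were 9 genes, 5 of them for matrix proteins or enzymes, none for muscle and all 9 below all normals. Between -3 and -2 these numbers were 11 matrix and 3 muscle genes of 20, with all 20 below all normals. From -2 to -1.5 muscle genes outnumbered matrix genes, with 2 matrix and 8 muscle genes of 18 and 11 of the 18 below all normals. Between -1.5 and -1 there were 8 matrix and 43 muscle genes of 98, and only 18 of the 98 lay 2-fold below all normals.

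**Figure D1:**
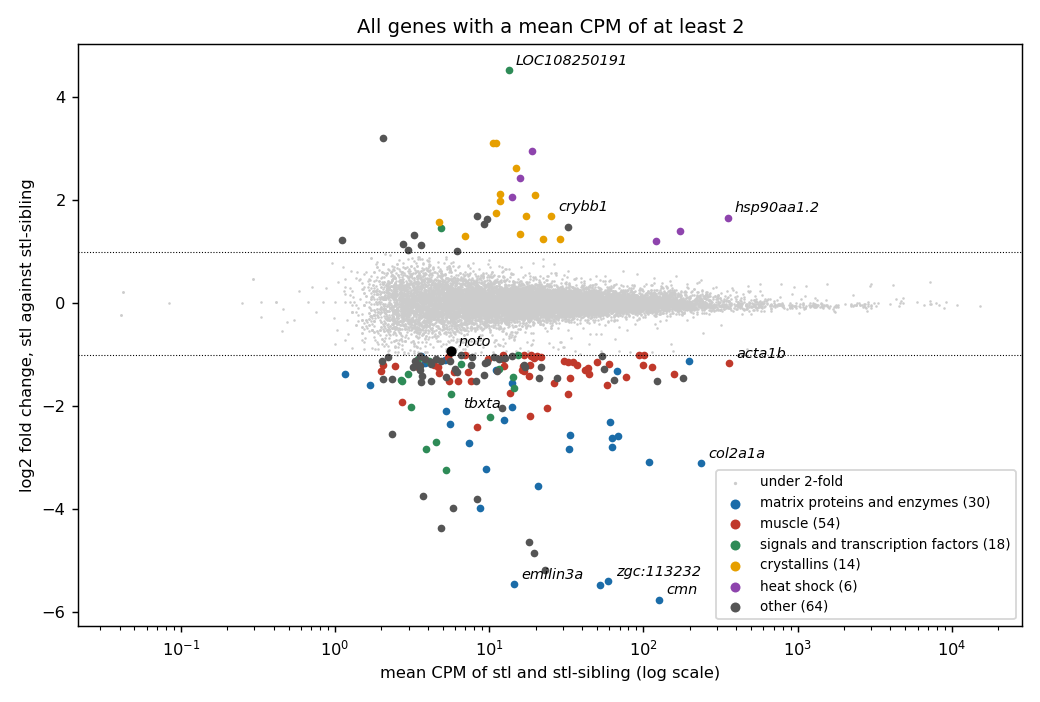
Log2 fold change of *stl* against *stl*-sibling (y axis) plotted against the mean CPM of both libraries (log x axis) for 15363 genes, 1 point per gene, with coloured points at least 2-fold apart and dotted lines at 2-fold. The lowest points are matrix genes such as *cmn* at -5.76, the muscle genes crowd just under -1, *noto* (black) sits at -0.94, and the crystallins lie between 1.25 and 3.12.

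Collagens made up 12 of the 153 lower genes, with a median log2 fold change of -2.60, and 10 of the 12 lay 2-fold below all normals. Their summed level was 1618 CPM in *stl*-sibling, 1056 in WT, 1322 in *btl*-sibling and 286 in *stl*. *col2a1a*, a type II collagen and the chief fibrillar collagen of the notochord sheath and cartilage, had the largest difference in CPM of all lower genes. It was measured at 235 CPM in WT, 426 in *stl*-sibling, 345 in *btl*-sibling and 48.9 in *stl* (-3.11, interval -3.25 to -3.0). A second gene annotated as a type II alpha-1 chain, zgc:113232, was nearly gone, with 72.8 CPM in WT, 116 in *stl*-sibling, 83.8 in *btl*-sibling and 2.28 in *stl* (-5.39, interval -6.28 to -5.13). The third, *col2a1b*, was the most abundant and the least affected of the type II genes, with 436, 611, 595 and 329 CPM in the same order (-0.89, interval -0.95 to -0.83).

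Type IX collagen, which sits on the surface of type II fibrils, was lower in 4 of its genes. These were the alpha-1 gene 108234119, drawn under its zmp symbol, at -5.46 with 22 reads in *stl* and 1259 in the sibling, *col9a1b* at -3.08, *col9a2* at -2.57 and *col9a3* at -2.30. *col9a1b*, which the study used to stain the notochord, was measured at 149 CPM in WT, 196 in *stl*-sibling, 150.3 in *btl*-sibling and 22.8 in *stl*. The fifth type IX gene, *col9a1a*, was not lower, with 10.3, 12.8, 8.22 and 14.5 CPM in that order (0.18, interval -0.14 to 0.50). The minor fibrillar chains *col11a2* (-2.55), *col5a3a* (-2.79) and *col11a1a* (-1.12) and the network-forming *col8a1a* (-2.62) were lower too. Lower values were not shared by most collagens, because over the 39 collagen genes matched by symbol the median was 0.02, with 19 below 0 and 20 above. Of the 39, 8 were at least 2-fold lower (20.5%, against 0.996% of all genes) and none was 2-fold higher. The interval was below 0 in 15 and above 0 in 8. The type IX gene 108234119 and the type II gene zgc:113232 carry other symbols and are not among the 39. *col18a1a*, a basement membrane collagen and the most abundant of the 39, was at 0.02.

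Among the other matrix proteins 13 genes were lower, and their summed level in *stl* was 45.6 CPM against 492 in *stl*-sibling, 362 in WT and 484 in *btl*-sibling. The lowest gene of the whole comparison was *cmn* (calymmin, linkage group 17, 15734471 to 15752413), a matrix protein of the zebrafish notochord sheath. It was measured at 157 CPM in WT, 249.9 in *stl*-sibling, 222 in *btl*-sibling and 4.13 in *stl*, from 49 reads in *stl* and 3042 in the sibling (-5.76, interval -6.36 to -5.51). *emilin3a* encodes an EMILIN, a secreted glycoprotein of elastic and notochord matrix, and had 2 reads in *stl* against 351 in the sibling, 393 in WT and 749 in *btl*-sibling (interval -10.47 to -5.55). A second EMILIN-3 gene, LOC108235140, was at -2.83 with 92 reads in *stl* and 708 in the sibling. The small leucine-rich proteoglycan *epyc* (-3.54), the matrilins *matn3a* (-2.71) and *matn4* (-2.27) and the chondroadherin-like *chadla* (-2.09) are cartilage matrix genes, and in each *stl* lay 2-fold below all normal libraries. *thbs2a* was at -1.16 against the sibling and at -0.11 against WT, so it was high in the sibling rather than low in *stl* alone.

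Among enzymes that work on matrix 5 were lower. The lysyl oxidases *loxl5b* (-3.98) and *loxl1* (-3.22) cross-link collagen and elastin, and had 7 and 17 reads in *stl* against 204 and 213 in the sibling. The serine protease *htra3a* was at -2.34, the procollagen galactosyltransferase *colgalt2* at -1.32 and the transglutaminase *tgm2b* at -1.09. Over the 65 genes listed for collagen processing and the early secretory pathway the median was -0.09 and only 3 were 2-fold lower, namely *loxl5b*, *loxl1* and *colgalt2*. The collagen chaperone *serpinh1b* was at 0.46 (interval 0.38 to 0.53), with 189.8 CPM in WT, 199 in *stl*-sibling, 121 in *btl*-sibling and 273 in *stl*.

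Across the whole list of notochord sheath and vacuole genes, 28 of 39 were below 0, 16 were at least 2-fold lower, none was 2-fold higher and the median was -0.61, against a median of 0.00 over all genes tested. Among members with a mean of at least 10 CPM the median was -0.22. Against WT the median over the 39 was -0.40, and for *stl*-sibling against WT it was 0.22. In 14 of the 39, *stl* lay 2-fold below all normals. The list split by size, in that the 16 lower genes lay between -5.76 and -1.12 whereas basement membrane members that many tissues share were near 0, such as *lamb1a* (0.07), *lamc1* (-0.03) and *lama5* (0.07). The muscle caveola genes of the list, *cavin4a* (-1.51) and *cav3* (-1.36), also belong with the muscle genes described below.

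**Figure D2:**
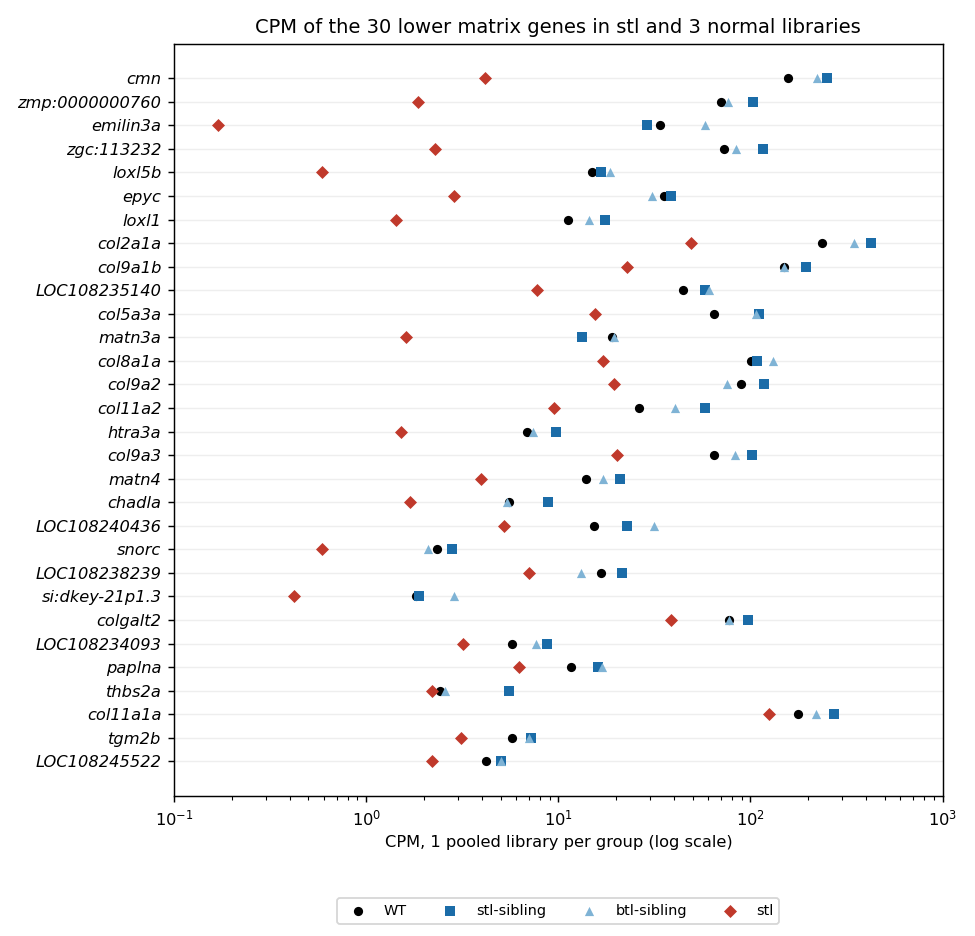
CPM (log x axis) of the 30 lower collagens, matrix proteins and matrix enzymes, ordered by log2 fold change against *stl*-sibling, with 1 symbol per pooled library. In *stl* (diamonds) *cmn* sits at 4.13 CPM against 157 to 249.9 in the normal libraries, while for *thbs2a* at the other end *stl* and WT overlap.

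Several of the lowest genes were neither collagens nor annotated matrix proteins. *susd5*, a sushi domain protein, had 10 reads in *stl* and 463 in the sibling (-4.84, interval -6.56 to -4.60). LOC108233214, whose product is uncharacterized, had 9 and 549 reads (-5.18), and LOC108239880 had 11 and 426 (-4.64). The amino acid transporter gene *slc38a8b* had 3 reads in *stl* against 139 in the sibling, 126 in WT and 115 in *btl*-sibling (interval -7.79 to -3.92). LOC108237682, annotated as a fibroin heavy chain, was at -3.81 and si:dkeyp-118a3.2 was at -3.74 with 1 read in *stl* and 89 in the sibling. In each of these genes *stl* was far below the 3 normal libraries, which for LOC108237682 differed among themselves by 1.06 on the log2 scale and for the others by 0.54 or less. No function is assigned to them here.

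Of the 18 listed regulators of notochord development 16 were below 0 (51.1% of all genes) and 6 had an interval below 0 (9.25% of all genes), with a median of -0.26, and in 13 *stl* was under the lowest normal library, against 26.9% of all genes. Only *tbxta* (Brachyury), the T-box factor of the notochord and tail bud, passed 2-fold. It was measured at 21.6 CPM in WT, 22.1 in *stl*-sibling, 24.0 in *btl*-sibling and 6.75 in *stl* (-1.64, interval -2.09 to -1.35). The normal libraries differed by 0.15 on the log2 scale at most. Its duplicate *tbxtb* was at -0.05. The BMP antagonist *chrd* was at -0.72 (interval -1.13 to -0.39), the ligand *shha* at -0.60 (interval -0.94 to -0.29) and the forkhead factor *foxa2* at -0.39 (interval -0.63 to -0.16), each with *stl* as the lowest of 4 libraries. *sox9a*, a regulator of cartilage and sheath collagens, was at 0.10.

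Of the lower genes 11 encoded signals, antagonists or receptors, and all 11 lay 2-fold below every normal library. LOC108232862 is annotated as anti-dorsalizing morphogenic protein, a BMP-type ligand of the dorsal organizer in other vertebrates. It was measured at 7.41 CPM in WT, 4.52 in *stl*-sibling, 7.22 in *btl*-sibling and 1.43 in *stl* (-1.38, interval -2.53 to -0.85). The Nodal antagonist gene *lft1* was at -1.51 with 14 reads in *stl* and 52 in the sibling, and *fgf17*, an FGF ligand of the tail bud, was at -1.13 with 28 and 70 reads. *notum2*, whose family removes a lipid from Wnt ligands, was at -2.21, *egf* at -2.70 and the hedgehog-interacting-protein-like gene *hhipl2* at -3.25. LOC108244977 (angiopoietin-related) was at -1.18, and the receptor genes were *lepr* (-2.01), *adgrd1* (-1.48) and *aplnr2* (-1.08). The summed level of the 11 was 74.6 CPM in WT, 80.4 in *stl*-sibling, 75.6 in *btl*-sibling and 18.2 in *stl*.

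The lists of pathways around these signals had medians near 0. Of the 26 genes listed for the hedgehog pathway none differed 2-fold and the median was -0.08. The interval was below 0 in 5 of them and above 0 in 2, against 9.25% and 8.47% of all genes. Of 17 floor plate and hypochord genes only *col9a3* differed 2-fold, with a median of -0.13. The median was -0.07 for 53 genes of the BMP and TGF-beta list, with *lft1* called. In 21 of the 53 *stl* was under the lowest normal library and in 11 over the highest, against 26.9% and 25.5% of all genes. The median was 0.02 for 28 genes of the FGF list, with *fgf17* called, and 0.00 for 55 Wnt genes, of which none was called. With 1.21% of all genes called, lists of these sizes would hold few calls in any case. The sclerotome list, from which the vertebrae form, had a median of -0.13 over 8 genes and none with an interval leaving out 0.

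Among 30 tail bud and posterior body genes the median was -0.06, with 19 below 0 and 11 above. The interval was below 0 in 9 (9.25% of all genes) and above 0 in 3 (8.47% of all genes). In 16 *stl* was under the lowest normal library and in 5 over the highest, against 26.9% and 25.5% of all genes. *stl* lay 2-fold below all normals in 3 of the 30, against 0.527% of all genes. Against the sibling *tbxta* and *fgf17* alone were 2-fold lower. Next to them stood *szl* (-0.80), *sp5l* (-0.73), *foxd5* (-0.73) and *fgf3* (-0.61), while *fgf8a* was at -0.06 and *wnt3a* at 0.18. The paraxial mesoderm and segmentation list, whose products pattern the somites, had a median of 0.05 over 25 genes with none called. *msgn1*, the mutated gene of the *btl* line, was measured at 9.47 CPM in WT, 7.31 in *stl*-sibling, 12.3 in *btl*-sibling and 10.8 in *stl*, so that *stl* lay within the normal libraries (0.53, interval 0.16 to 0.97). *tbx6* at 0.30 and *tbx16* at 0.08 also lay within them. The spinal cord marker *sox3* was at 0.07 (interval -0.02 to 0.17). Posterior *hox* genes had a median of -0.17 over 15 genes and anterior *hox* genes of -0.13 over 22, with none called in either. Few calls would be held by lists of these sizes, as 1.21% of all genes were called.

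Muscle was the largest functional group among the lower genes. It held 36 genes for sarcomere and contractile proteins, 15 for calcium handling, membrane and synapse, and 3 for energy supply. The sarcomere list, like the other lists, was chosen with earlier results of these data known. In it 45 of 49 genes were below 0 (51.1% of all genes) and 21 were at least 2-fold lower (0.996% of all genes). The median was -0.95. The single gene of that list that was 2-fold higher was *hsp90aa1.2*, a chaperone and not a sarcomere protein. The list also holds *hsp90aa1.1*, likewise a chaperone, which is counted among the genes below 0 (-0.95). The muscle calcium and excitation list had 24 of 28 genes below 0, 7 of them 2-fold lower, against the same shares of all genes. Its median was -0.76.

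The normal libraries themselves differed in muscle genes. The sarcomere list was higher in *stl*-sibling than in WT, with a median of 0.55, and lower in *btl*-sibling than in *stl*-sibling, with a median of -0.43. *stl*-sibling was the highest normal library in 36 of the 49 genes, against 31.6% of all genes. Against WT the median of the list in *stl* was -0.34, and against *btl*-sibling -0.55. *stl* was still under the lowest normal library in 34 of the 49, against 26.9% of all genes. It was 2-fold below that library in 2 of the 49, against 0.527% of all genes. The part of pool stage in these values was not tested.

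Single genes showed both patterns. *acta1b*, skeletal muscle actin and the most abundant gene of the sarcomere list, was measured at 244 CPM in WT, 498 in *stl*-sibling, 298 in *btl*-sibling and 222 in *stl*. With the sibling as reference it was at -1.17 (interval -1.24 to -1.1), and with WT at -0.14, so *stl* was close to WT. The calcium pump genes *atp2a1* (-1.03 and -0.20) and *atp2a1l* (-1.0 and 0.10), the ryanodine receptor gene LOC108236972 (-1.01 and 0.05), the creatine kinase gene *ckmb* (-1.01 and 0.08) and the myosin heavy chain gene *myhb* (-1.20 and 0.00) were likewise 2-fold lower than in the sibling but near WT.

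Most of the lower muscle genes were under the lowest normal library, 34 of the 36 for sarcomere and contractile proteins and 13 of the 15 for calcium handling, membrane and synapse, but fewer were 2-fold below it, namely 6 and 5. The regulatory light chain gene *myl2a* was measured at 7.81 CPM in WT, 14.3 in *stl*-sibling, 8.92 in *btl*-sibling and 2.28 in *stl* (-2.41, interval -3.29 to -2.06). The light chain gene *myl13* (-2.19), LOC108230875, annotated as myosin light chain 4-like (-2.04), *myom3*, an M-band protein (-1.92), LOC108230125, a PDZ and LIM domain protein of the Z-disc (-1.75), and *mybpc1*, the slow-type myosin-binding protein C (-1.41), were the others of the contractile group. In the second group they were *casq2*, the cardiac-type calsequestrin that stores calcium (-1.76), *cavin4a* (-1.51), *popdc2* (-1.31), and the neuromuscular synapse genes *musk* (-1.5) and *chrng* (-1.33). The receptor kinase MuSK and the gamma subunit of the fetal acetylcholine receptor both act on the muscle side of the synapse.

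Of the 14 myogenic regulators in the list *myog* (-1.44, interval -1.87 to -1.15) and *mef2d* (-1.01, interval -1.38 to -0.73) were 2-fold lower, *myf5* was at -0.50, and the median was -0.16. In the list 9 were below 0, against 51.1% of all genes, and 5 above, up to 0.37. *stl* was under the lowest normal library in 7 and over the highest in 5, against 26.9% and 25.5% of all genes. A gene annotated as a myoblast determination protein homolog, LOC108250023, was at -1.27 and the cofactor gene *vgll2b* at -1.77. *myog* was measured at 11.1 CPM in WT, 21.03 in *stl*-sibling, 15.13 in *btl*-sibling and 7.42 in *stl*. In all 5 lower transcription factor and cofactor genes *stl* was under the lowest normal library, but only *tbxta* was 2-fold below it. *hsp90aa1.1*, the muscle chaperone gene that matches the somite marker of the study, was at -0.95 (interval -1.07 to -0.84), with 86.6 CPM in WT, 151 in *stl*-sibling, 93.3 in *btl*-sibling and 77.9 in *stl*. The myosin chaperone gene *unc45b* was at -0.86.

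**Figure D3:**
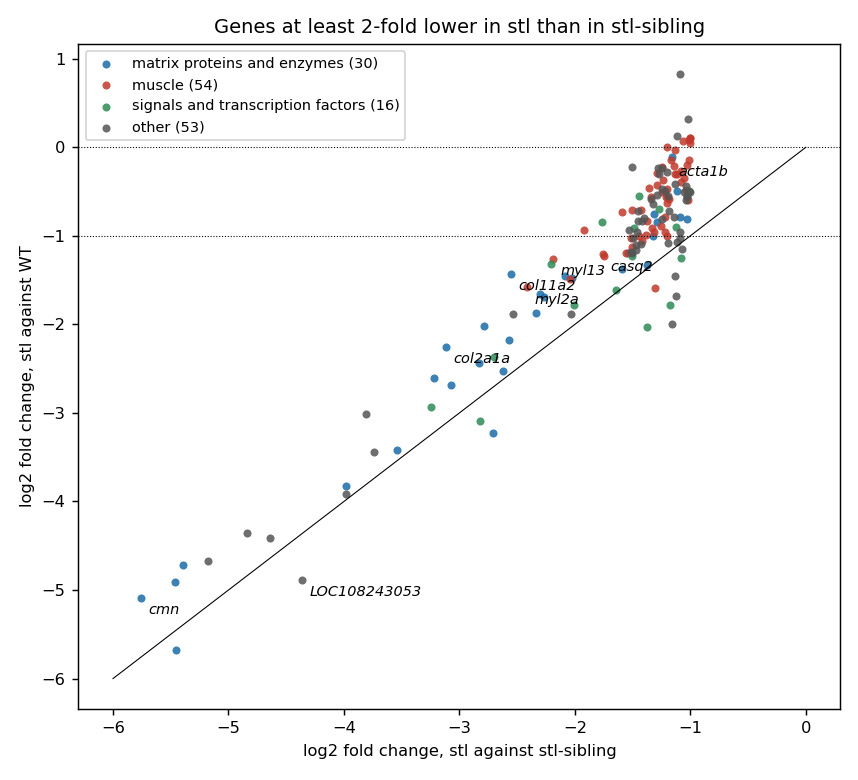
Log2 fold change of *stl* against WT (y axis) plotted against that of *stl* against *stl*-sibling (x axis) for the 153 lower genes, 1 point per gene coloured by function, with the line of equal values drawn and dotted lines at 0 and -1 against WT. Matrix and muscle genes alike lie mostly above the line, by 0.86 for *col2a1a* and 1.03 for *acta1b*, but *col2a1a* stays at -2.25 against WT whereas *acta1b* is at -0.14.

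The remaining lower genes were 27 with another named product and 26 with no product name. Of these, 12 and 7 lay 2-fold below all normals. The epidermal-type keratin gene *krt1-c5* was at -2.04 with 53 reads in *stl* and 242 in the sibling, whereas the 36 genes of the epidermis list had a median of -0.05 and none was called. *abcb11a*, a bile salt transporter gene, was at -1.16 and varied widely among the normal libraries, from 13.2 CPM in *stl*-sibling to 44.8 in *btl*-sibling. *ass1*, of the urea cycle, was at -1.45 with 14.6 CPM in *stl* against 24.4 to 40.8 in the normals.

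Crystallins, the structural proteins of the lens, made up 14 of the 33 higher genes. All 14 lay more than 2-fold above every normal library, with a median of 1.73 against the sibling, 2.05 against WT and 2.32 against *btl*-sibling. Their summed level was 76.2 CPM in WT, 91.9 in *stl*-sibling, 62.3 in *btl*-sibling and 332 in *stl*. The most abundant was the beta-crystallin gene *crybb1l1* at 12.2, 16.8, 9.47 and 40.7 CPM in the same order (1.25, interval 1.04 to 1.52). *cryba4* was measured at 3.01, 4.11, 3.57 and 19.5 CPM (2.12, interval 1.80 to 2.72) and *crybb1* at 8.27, 11.7, 8.53 and 38.8 CPM (1.69, interval 1.46 to 2.02). The largest ratios were in gamma-crystallin genes, with 23 reads in *stl*-sibling and 239 in *stl* for LOC108247860 (3.12, interval 2.80 to 4.11) and 46 and 309 for LOC108251161 (2.63, interval 2.34 to 3.27). LOC108251162 had no reads in WT, 21 in *stl*-sibling, 39 in *btl*-sibling and 230 in *stl*. Near-identical gamma-crystallin copies may share reads, so values of single copies are uncertain.

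The lens list held 33 genes, of which 19 reached the mean of 2 CPM. That mean includes *stl*, so genes high in *stl* pass it more easily. Of the 19 genes 10 were 2-fold higher, which were 9 crystallins and the calpain gene *capn3a* (1.54), and the median was 1.25. The lens transcription factor genes *foxe3* (0.14), *pitx3* (-0.08), *prox1a* (0.37) and *mafba* (-0.55) and the RNA-binding *tdrd7a* (0.07) and *caprin2* (0.05) were not called. The crystallin gene *crybb2* was at -0.23. The 14 crystallin genes were spread over 8 linkage groups, among them adjacent pairs on linkage groups 6, 9, 11 and 14.

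In all, 6 heat shock and co-chaperone genes were higher, with a summed level of 464 CPM in WT, 349 in *stl*-sibling, 132 in *btl*-sibling and 1038 in *stl*. *hsp90aa1.2*, an inducible-type Hsp90 gene, had the largest CPM difference of all higher genes, with 234, 168, 54.6 and 534 CPM in that order (1.66, interval 1.59 to 1.74). The Hsp70-family gene *hspa8b* was at 1.4, the J-domain gene *dnaja* at 1.2 and the Hsp70 gene LOC108251650 at 2.06. The small heat shock protein 30 genes LOC108232639 (2.96) and LOC108232651 (2.44) are neighbours on linkage group 14. The normal libraries differed more in these 6 genes than in the crystallins, with a median spread of 1.92 on the log2 scale against 0.48, and *btl*-sibling was always the lowest. The 39 genes of the wider chaperone list had a median of 0.03, with 25 above 0, 14 below and 2 called higher. The interval was above 0 in 13 (8.47% of all genes) and below 0 in 3 (9.25% of all genes). The abundant constitutive *hspa8* was at 0.02 and *hsp90ab1* at 0.04. None of 38 endoplasmic reticulum stress genes or 38 genes of the p53 and apoptosis list was called, against 1.21% of all genes.

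**Figure D4:**
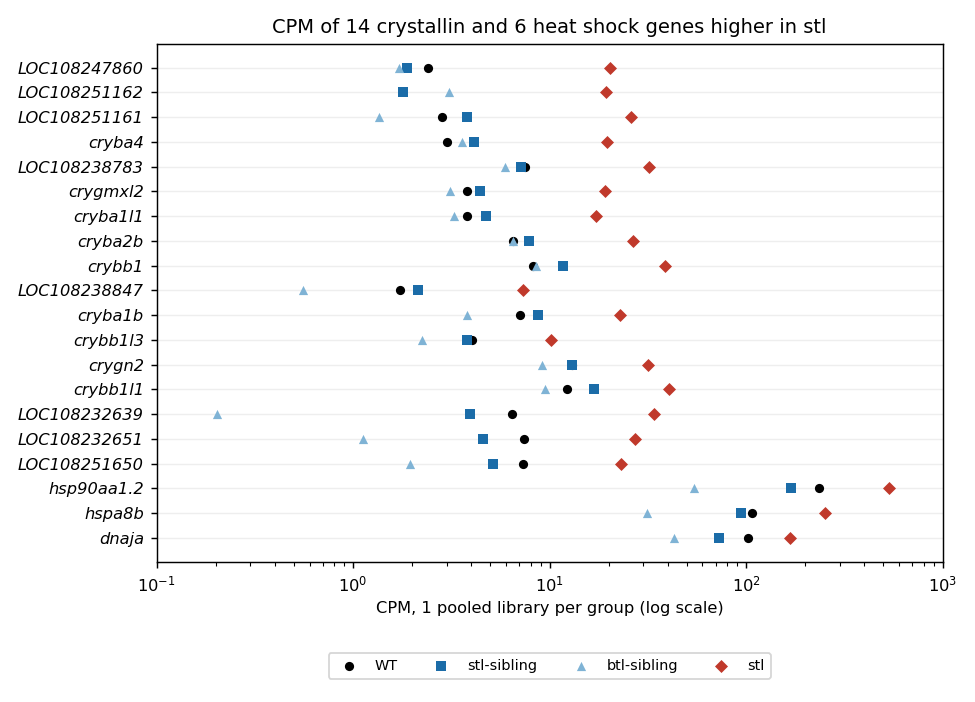
CPM (log x axis) of the 14 crystallin and 6 heat shock genes that were 2-fold higher in *stl*, with 1 symbol per pooled library and the 0 of LOC108251162 in WT not drawn. *stl* (diamonds) is to the right of all normal libraries for every gene, and *btl*-sibling (triangles) is far to the left for heat shock genes, at 54.6 CPM for *hsp90aa1.2* against 168 in *stl*-sibling.

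The highest gene of the comparison was LOC108250191, annotated as an immunoglobulin superfamily DCC subclass member, a family of neural cell surface receptors. It had no reads in WT, 8 in *stl*-sibling, 6 in *btl*-sibling and 308 in *stl* (4.52, interval 4.31 to 6.53). *bcl11ab*, a zinc finger transcription factor gene of the nervous system, was measured at 1.72 CPM in WT, 2.38 in *stl*-sibling, 2.33 in *btl*-sibling and 7.42 in *stl* (1.46, interval 1.02 to 2.3). Some genes were on in some libraries and off in others, including normal ones. LOC108242440 had 48 reads in *stl*, 52 in WT and none in either sibling library, at least 16.8-fold higher in *stl* than in its sibling with 3 reads as the limit per library. LOC108243053 had 166 reads in WT, 119 in *stl*-sibling and none in *stl* or *btl*-sibling, at least 38.6-fold lower in *stl*. LOC108243054, which carries the same product name of splicing factor-like protein 1, had 54 reads in *stl*-sibling, 154 in *btl*-sibling, 176 in *stl* and none in WT.

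Small shifts in one direction ran through the nervous system lists, though the pronephros and myeloid lists described below had medians in the same range. Of 20 neuron genes 18 were above 0 (48.9% of all genes), 8 had an interval above 0 (8.47% of all genes), and in 16 *stl* was over the highest normal library, against 25.5% of all genes. The median was only 0.19, and *stl*-sibling itself was above WT by 0.38. *onecut1* was at 0.77 (interval 0.38 to 1.27), *nrxn1a* at 0.54 and the neuronal RNA-binding gene *elavl3* at 0.49, with 23.8 CPM in WT, 32.5 in *stl*-sibling, 33.6 in *btl*-sibling and 45.9 in *stl*. Of 47 genes for neural progenitors and CNS patterning 38 were above 0 with a median of 0.15, and 31 were over the highest normal library. The Notch pathway list had 31 of 40 above 0 and a median of 0.09. None of these genes differed 2-fold. The neural crest and pigment list was at 0.08 against the sibling but at 0.61 against WT.

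In their medians, other tissues and cell functions differed little from the sibling. The medians were -0.13 for heart, where *popdc2* was called, -0.06 for blood, 0.00 for endothelium, 0.09 for pronephros, -0.03 for endoderm, liver and gut, and -0.02 for yolk and lipid transport. Of 17 heart genes 12 were below 0 and 5 above, with the interval below 0 in 6 (9.25% of all genes) and above 0 in none. In 9 heart genes *stl* was under the lowest normal library and in 3 over the highest, against 26.9% and 25.5% of all genes. Of 16 pronephros genes 12 were above 0 and 4 below, and in 11 *stl* was over the highest normal library, against 25.5% of all genes. The myeloid list had a median of 0.15 over 15 genes, with 10 above 0, 5 below and none called. Its interval was above 0 in 6 genes (8.47% of all genes). The cell cycle and DNA replication list had a median of -0.01 over 124 genes with none called. Cytosolic ribosomal protein genes had 74 of 78 below 0, but with a median of -0.05, and *stl* was under the lowest normal library in only 3. Mitochondrial ribosomal protein genes had 61 of 77 below 0 with a median of -0.09, and *stl* was under the lowest normal library in 38. Respiratory chain genes had 51 of 70 below 0 with a median of -0.06, and in 33 *stl* was under the lowest, against 26.9% of all genes. The summed level of these 70 genes went the other way, with 18315 CPM in *stl*-sibling and 21757 in *stl*. It was 23798 CPM in WT and 20816 in *btl*-sibling. The 10% of genes with the shortest coding sequences had a median of -0.06, and the part of coding length in the ribosomal and respiratory chain lists was not tested. By symbol class, 20.5% of collagens and 35.8% of muscle contractile proteins were 2-fold lower, against 0.996% of all genes. Of the 10 crystallins measured under a crystallin symbol 9 (90%) were 2-fold higher, against 0.215% of all genes. The mean of 2 CPM includes *stl*, so a crystallin low in the normal libraries could pass by being high in *stl*. *cryaa*, with 5 reads in *stl*-sibling and 7 in *stl*, did not reach that mean. In the symbol classes of 127 zinc finger, 163 tubulin, cilium and motor, and 263 proteasome and ubiquitin genes none was called. The called zinc finger gene *bcl11ab* is not in the zinc finger class. With 1.21% of all genes called in either direction, classes of these sizes would hold few calls in any case. Of the 204 solute carrier genes *slc38a8b* alone was called (0.49%).

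**Figure D5:**
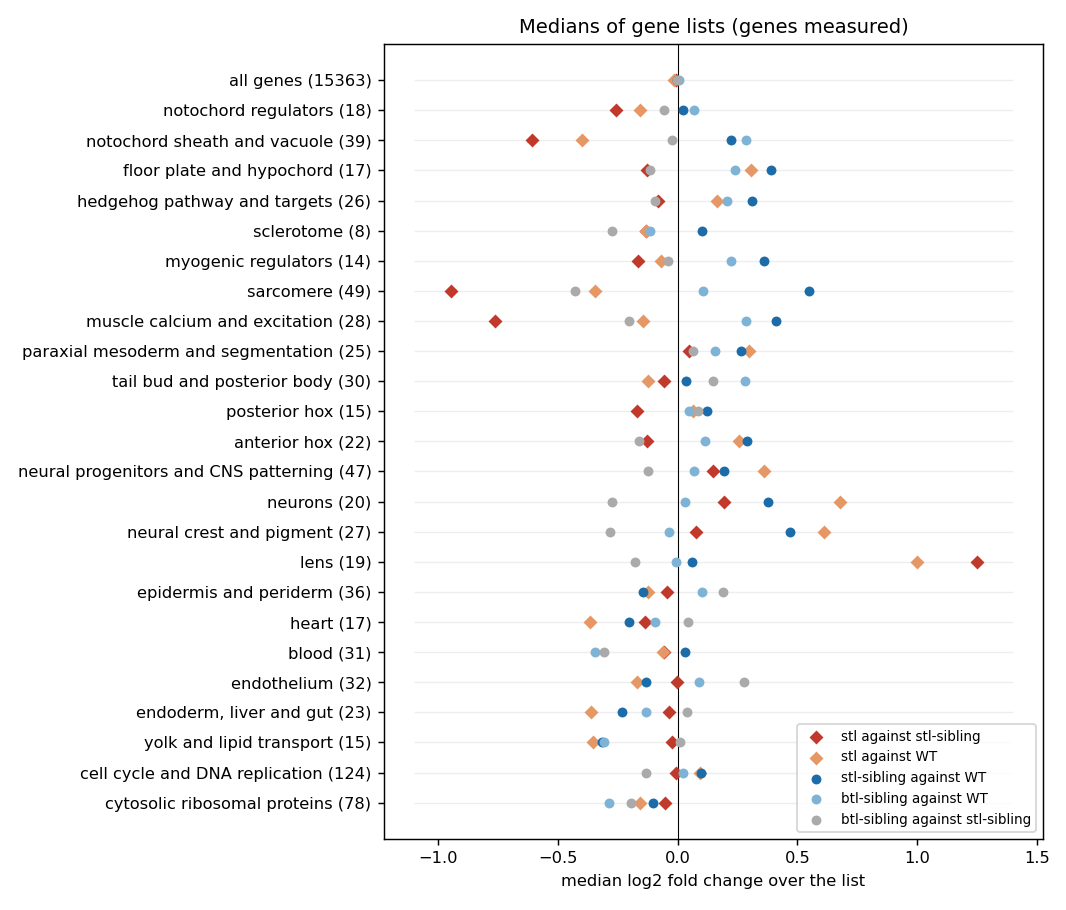
Median log2 fold change (x axis) over 24 gene lists and all genes, with the number of genes measured in brackets, for *stl* against *stl*-sibling and against WT (diamonds) and for the 3 comparisons among normal libraries (circles). The sarcomere list is at -0.95 against the sibling but -0.34 against WT, with *stl*-sibling at 0.55 against WT, whereas the lens list is at 1.25 and 1.0 with *stl*-sibling at 0.06.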

How the data were processed

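The 5 RNA-seq libraries came from pools of whole embryos, 1 per group, without replicates. Paired reads were trimmed, the ASM164957v2 coding sequences served as Salmon's (version 1.5.0) reference, and for each coding sequence the authors deposited an estimated count and a TPM value (scaled by length and library). The authors also deposited effective lengths, a joined count table, RPKM values and NOISeq comparisons, of which only the product names were used.

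Estimated counts were summed per gene through the protein accessions (37146 of 37181 coding sequences were assigned), rounded to whole numbers for the scaling factors only, and scaled to CPM by edgeR's TMM method (version 4.0.16, in R 4.3.3). All else used Python 3.11.15, numpy 2.4.6, pandas 2.3.3, scipy 1.17.1 and matplotlib 3.10.9. A mean of 2 CPM or more kept a gene, and 0.5 CPM was added before log2 ratios were taken. Intervals are exact (Clopper-Pearson) 95% intervals. A gene at 0 reads was set to 3 reads for a fold limit. A difference of 2-fold was called with no test. The calling and the intervals were tested on simulated counts that held counting error only. Differences between pools of embryos were not simulated, so that test says nothing about them.

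The comparison, the lists and the classes were chosen with earlier results of these data known. Lists and classes were matched by symbol, or by the zebrafish symbol without its final a or b, because product names were at hand for 3625 genes only. A total of 7715 genes carry only a LOC number, and most of these are in no list. *slc38a8b* and *susd5* were taken out of the sheath list, and functions of called genes were assigned by hand, after values were seen. The named genes were drawn from *noto*, the stained markers and the 25 lowest and 25 highest genes. They were also drawn from each list, up to 4 members with the largest change plus the most abundant one, and from called genes of each class. Not all of these genes are named, and several of the 25 highest, crystallins among them, are not. Others named were chosen after their values were seen. Alternatives were CPM by library size, size factors of DESeq2 1.42.0, the TPM the authors deposited, pseudocounts of 0.1 and 2, no filter, minimum means of 10 CPM and of 2 CPM over *stl* and *stl*-sibling, 4-fold, the nearer interval end, single coding sequences, WT or the mean of 3 normal libraries as reference, and removal of a coding length trend. A description of promoter motifs was planned and not run. One called gene is not reported here by name.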

Additional observations from a re-analysis of the deposited data

Results flagged for a closer look

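For 4 of the genes that differed 2-fold between *stl* and *stl*-sibling, the *btl* mutant differed 2-fold from its own sibling in the opposite direction. With 1 library per group these opposite directions were not tested. *tbxta* was at a log2 fold change of -1.64 for *stl* and 1.5 for *btl*, while the normal libraries differed by 0.15 at most. The collagen-like gene si:dkey-21p1.3 was at -1.37 in *stl*, with 5 reads against 23 in the sibling, and at 3.09 in *btl*. It was below 2 CPM in both *stl* and *stl*-sibling. The mean of 2 CPM includes *btl*, so this gene could pass by being high there. The crystallin gene *crybb1* was at 1.69 in *stl* and -1.37 in *btl*, with a spread of 0.47 among the normal libraries. LOC108230688, annotated as a cytochrome P450 2J2, was at 1.03 in *stl* and -2.08 in *btl*, but the normal libraries themselves were spread over 1.25.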

How the results depend on the processing

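No paired analysis was possible because each group has 1 library and the labels give no replicates; for the same reason no replicate could be left out. With library-size CPM, DESeq2 size factors, TPM, a pseudocount of 0.1, a minimum of 2 CPM over *stl* and *stl*-sibling and the coding length correction, the counts of genes stayed within 1.5 times, and no scaling moved the median of all genes beyond 0.012. The 153 lower genes became 96 with a pseudocount of 2 and 77 by the nearer interval end. Without a filter 232 genes were lower and 98 higher, with 380 below and 344 above all normal libraries, and with a minimum of 10 CPM these were 80, 11, 32 and 9. At 4-fold they were 37, 10, 28 and 8. Single coding sequences gave 961, 855, 467 and 200. Against WT 186 genes were higher, the sarcomere median was -0.34 and that of muscle calcium genes -0.15, LOC108242440 turned to -0.13 and *ckmb* to 0.081. Against the mean of the normal libraries 67 genes were higher and the sarcomere median was -0.63. Against *btl*-sibling, an alternative chosen after seeing the data, 276 genes were lower and 230 higher, with a sarcomere median of -0.55. The notochord sheath median of -0.61 was -0.22 with a minimum of 10 CPM, -0.90 with single coding sequences, -0.40 against WT, -0.47 against the mean of the normal libraries and -0.46 against *btl*-sibling, and below 0 under each alternative that gave one. The lens median lay between 1.0 and 1.47. List members under every alternative were genes that had passed the main filter of 2 CPM. Leaving out the filter therefore could not change a list median.

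Log2 fold changes rose with coding length across genes (Spearman 0.21 over all genes, described without a test), from a median of -0.06 in the 10% of genes with the shortest coding sequences to 0.08 in the longest 10%. Genes with few reads have wide intervals, and depth limits calls near 2 CPM. Intervals leave out the difference between pools of embryos, which 1 library per group cannot give.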

Other observations

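The called genes were compared by their place on the linkage groups. Of the 153 lower genes 10 stood next to another lower gene in the order of measured genes, and of the 33 higher genes 10 stood next to another higher gene. The neighbouring pairs of higher genes were crystallins on linkage groups 6, 9, 11 and 14 and the pair of heat shock protein 30 genes. Among the lower pairs, *col9a1b* lies beside the type XIX collagen gene LOC108234093 on linkage group 22, and *myhb* beside LOC108247384 on linkage group 4. Linkage group 10, which holds *noto*, had 9 called genes of 661 (1.36%), near the share of 1.21% over all genes.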
